A study of Homo sapiens with 2 samples.

Results

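The 10 genes described here build the 2 adhesive junctions of epithelial cells, the desmosome and the adherens junction. They are CDH1, CDH3, DSG2, DSG3, DSC3, JUP, PKP1, PKP2, PKP3 and DSP, taken by gene name from a transcript table that holds 24124 genes. All 10 were found, with 67 listed transcripts on 7 chromosomes. RNA was sequenced from the established human oral cancer line SAS, in 1 library per group. The ASC library came from SAS cells stably carrying the lentiviral plasmid pLKO.AS2 with ASC, the inflammasome adaptor encoded by PYCARD. The control library came from SAS cells with pLKO.AS2 alone. Both lines were kept in DMEM with 10% FBS, 200 μg/ml G418 and 2 μg/ml puromycin, and the labels do not say whether either line is 1 clone or a mixed population. The question was what added ASC changes in gene expression.

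Cadherins are the transmembrane proteins of both junctions and bind cadherins of the neighbouring cell in a calcium-dependent way. In the adherens junction, E-cadherin (CDH1) and P-cadherin (CDH3) hold beta-catenin or plakoglobin inside the cell, and alpha-catenin links them to actin. In the desmosome, desmogleins (DSG) and desmocollins (DSC) bind plakoglobin (JUP) and plakophilins (PKP), which recruit desmoplakin (DSP), the anchor for keratin filaments. Squamous epithelia change the make-up of their desmosomes with differentiation, and loss of E-cadherin is a hallmark of the epithelial to mesenchymal transition.

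Several of these genes have splice forms that differ in coding sequence, and the results by transcript turn on the stretches below, read from the GENCODE release 29 transcripts. Each exon has 15 neighbouring coding bases on either side in lower case, and capitals mark the exon that is in one form and absent from the other. The exon of CDH1 is at chr16:68819280-68819425 on the plus strand (hg38), is part of the main coding form CDH1-201, and is skipped in CDH1-210, which the annotation classes as a target of nonsense-mediated decay. The CDH3 exon is at chr16:68645636-68645750 on the plus strand, is in the coding form CDH3-202 and is skipped in CDH3-203, also classed as a decay target. CDH3-203 also lacks a further block of 98 bases of CDH3-202, and 308 and 344 bases at its ends. CDH1-210 likewise lacks 87 and 518 bases at the ends of CDH1-201. The PKP1 exon is at chr1:201319816-201319878 on the plus strand and separates plakophilin 1b (PKP1-201) from 1a (PKP1-203).
CDH1 exon: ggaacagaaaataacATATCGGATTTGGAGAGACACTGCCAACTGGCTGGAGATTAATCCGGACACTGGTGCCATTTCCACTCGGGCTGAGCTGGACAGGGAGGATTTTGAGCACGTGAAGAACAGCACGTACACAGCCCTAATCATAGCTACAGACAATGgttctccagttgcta
CDH3 exon: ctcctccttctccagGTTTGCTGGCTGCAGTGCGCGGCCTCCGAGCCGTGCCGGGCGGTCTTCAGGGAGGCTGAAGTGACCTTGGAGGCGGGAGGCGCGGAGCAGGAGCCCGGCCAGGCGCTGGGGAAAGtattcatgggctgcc
PKP1 exon: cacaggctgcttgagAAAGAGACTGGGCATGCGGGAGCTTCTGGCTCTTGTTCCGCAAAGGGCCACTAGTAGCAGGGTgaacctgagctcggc

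The tail of desmocollin 3 and the rod of desmoplakin are also set by splicing. DSC3-202 encodes desmocollin 3b through an exon whose coding end, chr18:30994470-30994496 on the minus strand, stops the protein early, and the stop codon is in capitals. The stop leaves 839 codons, against 896 in DSC3-201, the form of desmocollin 3a with the long tail that holds plakoglobin. In DSP, 2 splice sites in the same exon give desmoplakin I (DSP-201, 2871 codons) or desmoplakin II (DSP-202, 2272 codons). The exon runs from chr6:7579275 to 7581569 on the plus strand in the long form and ends at 7579772 in the short one, so 1797 bases of rod coding sequence are left out. Both lines show the 24 bases before that site in lower case and the 24 bases that follow in the transcript in capitals.
DSC3 exon: gaatccattagaggacacactggtTAA
DSP-201 junction: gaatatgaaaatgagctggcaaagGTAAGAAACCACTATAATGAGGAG
DSP-202 junction: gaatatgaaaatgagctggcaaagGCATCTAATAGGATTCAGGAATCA

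The ASC library had 31426491 listed reads and the control library 31289581. PYCARD RPKM was 266.5 with ASC and 1.36 in the control library, in the direction that the titles and vector labels give. The genotype label of the ASC sample reads SAS overexpression and does not name ASC. RPKM counts reads scaled to the length of the transcript and the depth of the library, here summed over the transcripts of a gene. Squamous and simple epithelial markers fixed as lists were present, with 6 of 6 and 4 of 4 at 1 RPKM or more in both libraries. The squamous sum was 752.1 RPKM in the ASC library and 808.3 RPKM in the control library. Within it, KRT5 alone had 311.0 RPKM with ASC and 421.0 RPKM in the control, so the other squamous markers together were higher with ASC. The simple epithelial sum was 2895 RPKM in the ASC library and 2107 RPKM in the control library, and the part of these differences in the results was not tested. Fibroblast, leukocyte and cardiomyocyte markers had 0 of 7, 0 of 5 and 0 of 4 genes at 1 RPKM in either library. Of 4 endothelial markers CDH5 alone reached 1 RPKM in both libraries, and of 4 melanocyte markers PMEL alone did, in the control library. Log2 ratios are ASC over control on the log2(RPKM + 1) scale, so differences of low genes come out too small. A gene was compared if its RPKM was 1 or more in either library. With 1 library per group there is no replicate check and no test. The 95% intervals come from reads scaled to library depth and cover counting error only.

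All 10 junction genes reached 1 RPKM in both libraries, and none was 2-fold higher or lower, where 0.882% of the 12471 compared genes were. Above 0 were 5 genes and below 0 were 5, beside 52.0% of all compared genes above 0. Their median log2 ratio was 0.02, against 0.01 over all compared genes, and it was 0.06 with the highest transcript of each gene and -0.01 with the median of neighbouring genes subtracted. The summed level of the 10 genes was 529.4 RPKM in the ASC library and 501.7 RPKM in the control library. PKP1 was the only one of the 10 past 1.5-fold, on the lower side, where 1.81% of all compared genes lay. None was 1.5-fold higher, beside 2.38% of all compared genes. The 95% interval lay above 0 for 5 genes (CDH1, CDH3, DSG2, PKP2 and PKP3) and below 0 for 3 (DSC3, JUP and PKP1). It spanned 0 for 2, DSG3 and DSP.

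**Figure D1:**
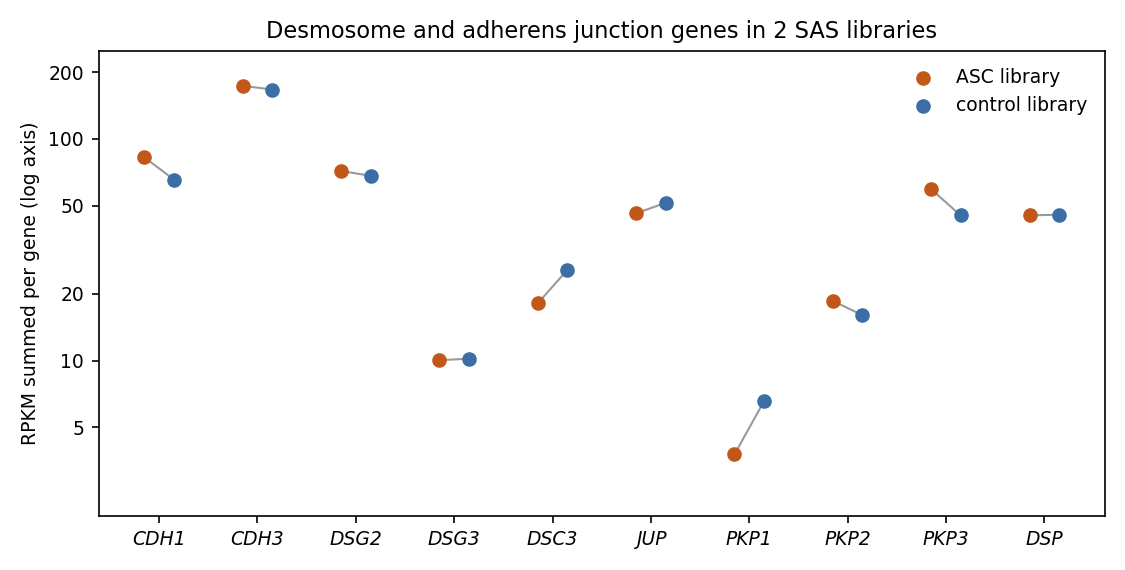
Levels of the 10 junction genes in RPKM on a log axis, with the ASC library left and the control library right for each gene and a line joining the pair. CDH3 is the highest and PKP1 the lowest in both libraries, and PKP1 and DSC3 have the steepest lines, with the ASC library lower.

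The order of levels was nearly shared by the libraries. CDH3 was first at 173.8 RPKM in the ASC library and 167.1 RPKM in the control library, and PKP1 was last at 3.78 RPKM with ASC and 6.56 RPKM in the control. CDH1 was second in the ASC library and the third in the control library, where DSG2 was above it. PKP3 was ahead of DSP and JUP in the ASC library and behind both in the control library. DSG3 was ninth in both. DSP and JUP were neighbours in the order of the ASC library, at 45.2 RPKM for DSP and 46.2 RPKM for JUP. With no repeated library, the order of such close neighbours has no measure of spread.

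Of the adherens junction cadherins, CDH1 differed and CDH3 hardly did. CDH1 (ENSG00000039068.18), which encodes E-cadherin, stood at 82.6 RPKM in the ASC library and 65.6 RPKM in the control library, with 13177 estimated reads with ASC and 10270 in the control. That is a 1.26-fold difference and a log2 ratio of 0.33, at percentile 91.5 of all compared genes. The log2 ratio of its reads was 0.35 (95% interval 0.32 to 0.39). CDH3 (ENSG00000062038.13), which encodes P-cadherin of basal epithelial cells, had a log2 ratio of 0.06, and that of its reads was 0.05 (95% interval 0.02 to 0.08). CDH1 made up 32.2% of the summed RPKM of both cadherin genes in the ASC library, against 28.2% in the control library. The pair lies head to tail on the plus strand of chromosome 16, with 14608 bases between the annotated end of CDH3 at 68722616 and the start of CDH1 at 68737225.

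The desmosomal cadherins on chromosome 18 did not share a direction. DSG2 (ENSG00000046604.12), the desmoglein of simple and proliferating epithelia, stood at 71.7 RPKM in the ASC library and 68.3 RPKM in the control library. For DSG2 the log2 ratio of reads was 0.06 (95% interval 0.02 to 0.09). DSG3 (ENSG00000134757.4), the basal desmoglein that is the autoantigen of pemphigus vulgaris, stood at 10.1 RPKM with ASC and 10.2 RPKM in the control, with 1981 reads with ASC and 2018 in the control. Its interval of -0.12 to 0.06 for the log2 ratio of reads spans 0, so a difference of DSG3 was not detectable at this depth. DSG2 provided 87.7% of the summed RPKM of this pair of desmogleins in the ASC library, against 87.0% in the control library.

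DSC3 (ENSG00000134762.16), the desmocollin of basal squamous cells, was lower in the ASC library. It stood at 18.2 RPKM in the ASC library and 25.6 RPKM in the control library, with 3706 reads with ASC and 5076 in the control. The control level was 1.41-fold higher than the ASC level, and the log2 ratio of -0.48 lay at percentile 3.54 of all compared genes. The log2 ratio of its reads was -0.46 (95% interval -0.52 to -0.40). DSC2, the widely expressed desmocollin, was higher in the ASC library, at 3.78 RPKM in the ASC library and 3.09 RPKM in the control library. DSC3 thus held 82.7% of the summed desmocollin RPKM in the ASC library, against 89.3% in the control library, and the sum itself was 21.9 RPKM with ASC and 28.7 RPKM in the control. DSC1, a desmocollin of late squamous differentiation, was at 0.0132 RPKM in the ASC library and listed at 0 in the control library. DSC3 lies on the minus strand of chromosome 18, 404979 bases from DSG3, and DSG3 and DSG2 follow each other on the plus strand with 19340 bases between them. The median log2 ratio of the 50 nearest compared genes was 0.01 at DSC3, 0.01 at DSG3 and -0.01 at DSG2.

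The 3 plakophilins did not share a direction. These armadillo-repeat proteins cluster desmosomal cadherins and bring desmoplakin to the plaque. PKP1 (ENSG00000081277.12), the plakophilin of stratified squamous epithelium, stood at 3.78 RPKM in the ASC library and 6.56 RPKM in the control library, with 685 reads with ASC and 1187 in the control. The control level was 1.74-fold higher, and the log2 ratio of -0.66 lay at percentile 1.23 of all compared genes. For PKP1 the log2 ratio of reads was -0.80 (95% interval -0.94 to -0.66). PKP3 (ENSG00000184363.9), found in nearly all desmosome-bearing epithelia, stood at 59.3 RPKM in the ASC library and 45.2 RPKM in the control library. Its log2 ratio of 0.38, a 1.31-fold difference, was the highest of the 10 genes and lay at percentile 93.9. For PKP3 the log2 ratio of reads was 0.34 (95% interval 0.28 to 0.40). PKP2 (ENSG00000057294.14), the plakophilin of simple epithelia and heart, stood at 18.6 RPKM with ASC and 16.1 RPKM in the control, with a log2 ratio of reads of 0.27 (95% interval 0.19 to 0.35).

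The intervals of PKP1 and of both other plakophilins lay on opposite sides of 0. Summed over these 3 genes, plakophilin RPKM was 81.7 in the ASC library, against 67.8 in the control library. PKP1 provided 4.62% of that sum in the ASC library, against 9.67% in the control library, and PKP3 provided 72.6% with ASC and 66.6% in the control. PKP1 and DSC3 were the 2 genes of the 10 that lay below the 5th percentile of all compared genes, at -0.41. The other 8 lay between that value and the 95th percentile at 0.42.

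The plaque proteins that join cadherins to keratins differed little. JUP (ENSG00000173801.16) encodes plakoglobin, which serves in both junctions and is a close relative of beta-catenin. It stood at 46.2 RPKM in the ASC library and 51.6 RPKM in the control library, with 4925 reads with ASC and 5684 in the control, and its log2 ratio was -0.16. The log2 ratio of JUP reads was -0.21 (95% interval -0.27 to -0.16). DSP (ENSG00000096696.13) stood at 45.2 RPKM with ASC and 45.5 RPKM in the control, with 14923 reads with ASC and 14860 in the control. Its interval for the log2 ratio of reads ran from -0.03 to 0.03.

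**Figure D2:**
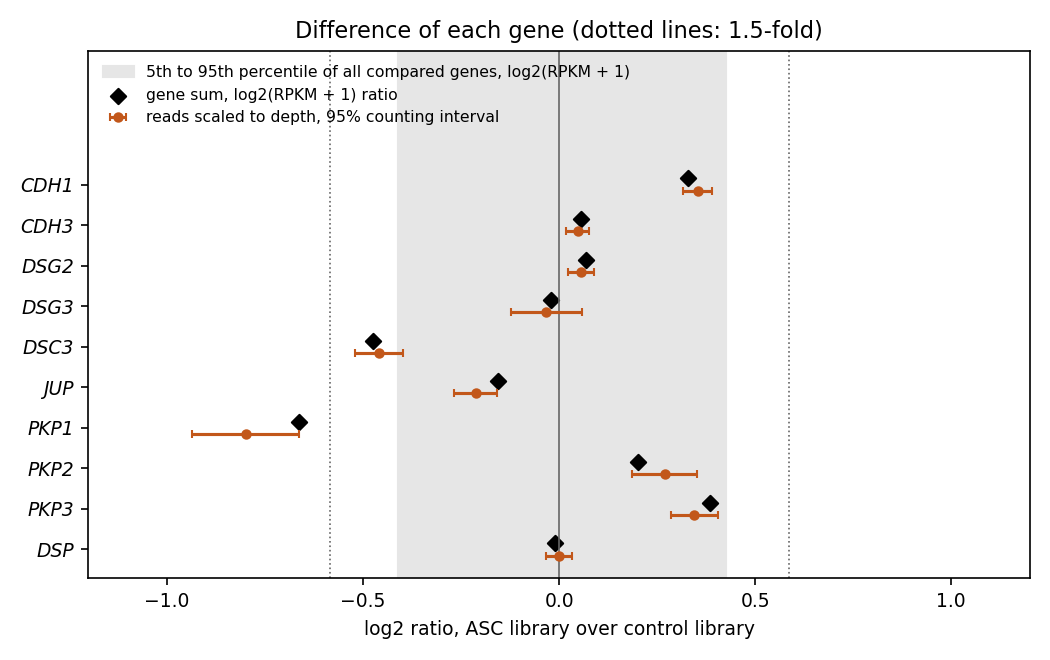
Log2 ratios of the ASC over the control library for the 10 genes, as log2(RPKM + 1) of the gene sum (diamonds) and as reads scaled to depth with 95% counting intervals (circles). The grey band holds the 5th to 95th percentile of all compared genes, -0.41 to 0.42, and PKP1 and DSC3 lie to its left.

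By transcript, 34 of the 67 listed forms reached 1 RPKM in either library. None was 2-fold higher or lower on the log2(RPKM + 1) scale, where 2.32% of the 34527 compared transcripts were. Above 0 were 23 and below 0 were 11, beside 50.1% of all compared transcripts above 0. At 1.5-fold, 1 was higher and 2 were lower, beside 5.66% and 5.34% of all compared transcripts. The higher one was PKP3-202, a retained-intron fragment of PKP3, with 22.1 reads in the ASC library, against 7.89 in the control library. At 1.98 RPKM with ASC and 0.707 RPKM in the control, it passed the filter through the ASC library only. The direction of PKP3-202 was thus set by the filter. The lower ones were PKP1-203 and CDH1-210.

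In CDH1, most of the higher level lay in the main coding form. CDH1-201 stood at 55.5 RPKM in the ASC library and 39.2 RPKM in the control library, a log2 ratio of 0.49. CDH1-210, which lacks the 146-base exon printed above, stood at 1.10 RPKM with ASC and 2.25 RPKM in the control, with 162.0 reads with ASC and 333.9 in the control. Its log2 ratio of reads was -1.05 (95% interval -1.33 to -0.78), on the other side of 0 from the gene as a whole. CDH1-209, the other decay-classed form at this level, had 88.8 reads in the ASC library, against 124.8 in the control library. CDH1-201 held 67.1% of the summed CDH1 RPKM in the ASC library, against 59.8% in the control library. CDH1-212, with an extra stretch that adds 21 codons, was higher too, at 10.6 RPKM with ASC and 8.72 RPKM in the control, and its log2 ratio of reads was 0.27 (95% interval 0.18 to 0.37). Its share was 12.9% with ASC and 13.3% in the control. Summed over protein-coding transcripts alone, CDH1 stood at 72.9 RPKM with ASC and 54.9 RPKM in the control, with a log2 ratio of 0.40.

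In CDH3, most RPKM was split between a coding and a decay-classed form, in like proportion in both libraries. CDH3-203, without the 115-base exon, stood at 85.8 RPKM in the ASC library and 82.0 RPKM in the control library. CDH3-202 stood at 77.2 RPKM with ASC and 75.4 RPKM in the control. CDH3-203 held 49.3% of the summed CDH3 RPKM in the ASC library, against 49.1% in the control library. Counting protein-coding transcripts only, CDH3 came to 83.6 RPKM with ASC and 80.5 RPKM in the control and was still the highest of the 10 genes. The forms share most exons, so their split rests on how the quantifier assigned reads. CDH3-201, the longest form, stood at 3.99 RPKM with ASC and 3.04 RPKM in the control, with a log2 ratio of reads of 0.38 (95% interval 0.22 to 0.55).

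DSP differed by form more than in total. DSP-201, which encodes desmoplakin I, stood at 32.8 RPKM in the ASC library and 30.0 RPKM in the control library. DSP-202, which encodes the short-rod desmoplakin II, stood at 12.5 RPKM with ASC and 15.6 RPKM in the control. The log2 ratio of reads was 0.12 for DSP-201 (95% interval 0.08 to 0.16) and -0.33 for DSP-202 (95% interval -0.40 to -0.27). Desmoplakin II thus held 27.5% of DSP RPKM in the ASC library, against 34.2% in the control library, a difference of -6.64 percentage points. As a share of DSP reads it held 23.2% with ASC (exact 95% interval 22.6% to 23.9%) and 29.3% in the control (28.5% to 30.0%). Reads outside the long-form stretch and the junctions fit either form, so these are the quantifier's estimates.

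In JUP, 2 forms with the same coding sequence of 745 codons differed unequally. JUP-203 stood at 21.1 RPKM in the ASC library and 28.0 RPKM in the control library, and its log2 ratio was -0.39. JUP-201 stood at 17.8 RPKM with ASC and 16.8 RPKM in the control. They differ by an intron of 297 bases in the 3′ UTR, which JUP-201 splices out and JUP-203 keeps, on chromosome 17 from 41755433 to 41755729. JUP-203 held 45.6% of JUP RPKM in the ASC library, against 54.3% in the control library. Of 33 member transcripts from genes with more than 1 form, 5 differed in share by at least 5 percentage points, namely CDH1-201, both DSP forms and these JUP forms. Over all transcripts measured this way, 23.3% did, and the median absolute difference was 2.02 points.

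**Figure D3:**
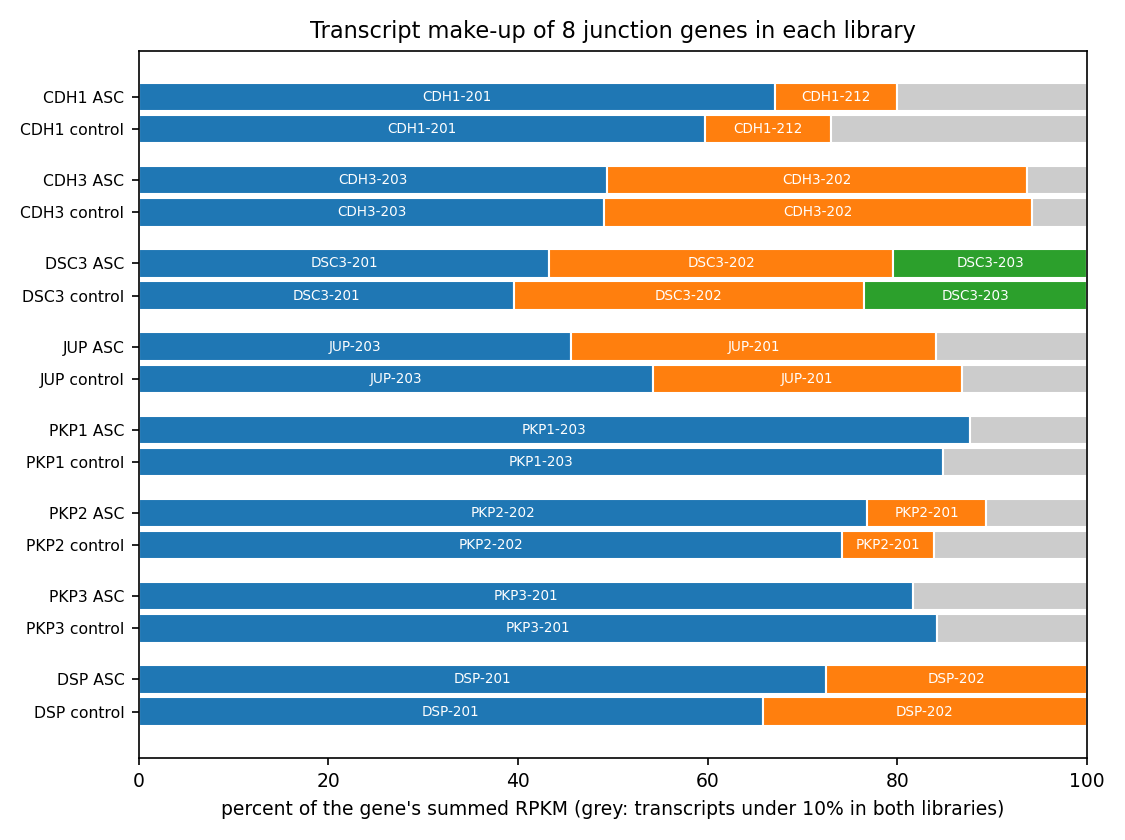
Transcript make-up of 8 junction genes, all but DSG2 and DSG3, as percent of summed RPKM, with the ASC library above the control library for each gene. The shares differ most in JUP, CDH1 and DSP, and are nearly equal in CDH3.

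For DSC3 and PKP1 the lower level was found in their main coding forms. DSC3-201 stood at 7.86 RPKM in the ASC library and 10.1 RPKM in the control library, and DSC3-202 at 6.59 RPKM with ASC and 9.46 RPKM in the control. The log2 ratios of reads were -0.38 for DSC3-201 (95% interval -0.46 to -0.29) and -0.53 for DSC3-202 (95% interval -0.62 to -0.44). DSC3-203, a fragment with no annotated start, stood at 3.70 RPKM with ASC and 6.04 RPKM in the control. Plakophilin 1a (PKP1-203), the form of desmosomes, stood at 3.31 RPKM with ASC and 5.57 RPKM in the control, and 1b (PKP1-201), which has been located in nuclei, stood at 0.202 RPKM with ASC and 0.519 RPKM in the control. With 39.3 reads with ASC and 101.2 in the control, PKP1-201 was lower in the ASC library as well. PKP1-202, a further coding form with very few reads, has 747 codons, as many as PKP1-201. It had 5.75 reads with ASC and 2.87 in the control, and its interval for the log2 ratio of reads spanned 0 (-1.23 to 3.62).

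For PKP2 and PKP3 the higher level was likewise found in the main forms. Plakophilin 2a (PKP2-202) stood at 14.3 RPKM in the ASC library and 11.9 RPKM in the control library. Plakophilin 2b (PKP2-201) stood at 2.34 RPKM with ASC and 1.55 RPKM in the control, with a log2 ratio of reads of 0.59 (95% interval 0.34 to 0.83). PKP3-201, the full coding form, stood at 48.5 RPKM with ASC and 38.1 RPKM in the control. The remaining PKP3 forms above 1 RPKM are short fragments, 3 of them with a retained intron. DSG2-201 held over 99% of DSG2 RPKM in both libraries, at 99.2% in the ASC library, against 99.5% in the control library, and DSG3 has 1 listed form.

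Other desmosome genes showed 1 difference past 1.5-fold, on the higher side, where 2.38% of all compared genes lay. Of the 10 genes of this list, 6 were compared, with 3 above 0, 3 below and none past 2-fold, and a median of 0.01. That median was 0.11 with the highest transcript of each gene and -0.03 with CPM. PPL, which encodes the cornified-envelope and desmosome protein periplakin, stood at 39.3 RPKM in the ASC library and 24.2 RPKM in the control library, a log2 ratio of 0.68. PERP, a tetraspan protein of desmosomes and a p63 target, stood at 74.1 RPKM with ASC and 87.2 RPKM in the control. DSC2 and KAZN, a gene for a desmosome-associated protein, had log2 ratios of 0.23 and -0.04. DSG1 and DSG4 had no listed transcript, and CDSN and DSC1 were too low to compare.

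Among the catenins and linkers of the adherens junction, 10 of 15 compared genes lay above 0 and 5 below, with none past 2-fold and a median of 0.22, or 0.07 with no filter on low values. CTNNB1, which encodes beta-catenin, stood at 202.2 RPKM in the ASC library and 155.8 RPKM in the control library, a log2 ratio of 0.37. CTNNA1, for alpha-catenin, had a log2 ratio of 0.25, and CTNND1, for p120-catenin that keeps cadherins at the surface, one of -0.11. With CTNNB1, the largest ratios of the list were those of the nectin-family genes PVR at 0.59, NECTIN2 at 0.54 and NECTIN4 at 0.30. The family did not share this, as NECTIN1 had a log2 ratio of -0.02 and NECTIN3 was too low to compare. PVR stood at 64.1 RPKM with ASC and 42.4 RPKM in the control.

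The other classical and related cadherins compared lay below CDH1 and CDH3, and CDH13 was the highest of them. CDH13, which encodes T-cadherin, a cadherin without a cytoplasmic tail, stood at 29.1 RPKM in the ASC library and 32.4 RPKM in the control library. Of 19 genes, 9 had no listed transcript, 4 were too low, and 6 were compared, with 4 above 0 and 2 below. At least 2-fold higher was 1, CDH11, beside 0.882% of all compared genes past 2-fold in either direction. It passed the filter of 1 RPKM through the ASC library only, so its direction was set by the filter. CDH11, a cadherin of mesenchymal cells, stood at 1.27 RPKM in the ASC library and 0.0457 RPKM in the control library, with 139 reads with ASC and 6 in the control. CDH4 stood at 5.92 RPKM with ASC and 3.37 RPKM in the control, and CDH5, the endothelial cadherin, at 2.23 RPKM with ASC and 1.23 RPKM in the control. CDH2, which encodes N-cadherin and often replaces E-cadherin in the epithelial to mesenchymal transition, stood at 4.96 RPKM with ASC and 3.50 RPKM in the control, far under CDH1 in both libraries. CDH24 had a log2 ratio of -0.50.

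Of the transcription factor genes known to act on junction genes, none passed 2-fold. Of 15 compared activators of epithelial genes, 11 lay above 0 and 4 below, with a median of 0.11. The median was 0.03 with a filter of 5 RPKM, 0.05 with the highest transcript, 0.06 with a pseudocount of 3 and 0.07 with no filter. KLF4 stood at 5.53 RPKM in the ASC library and 3.15 RPKM in the control library, and TFAP2C and ELF3 had log2 ratios of 0.47 and -0.39. Of 14 genes listed as repressors of CDH1, 6 were compared and 8 were under 1 RPKM in both libraries, among them ZEB1, ZEB2 and TWIST1. SNAI1 stood at 1.65 RPKM with ASC and 1.01 RPKM in the control, with 99 reads with ASC and 61 in the control. TWIST2, E2F8 and TCF3 had log2 ratios of 0.30, 0.28 and -0.28. Of 14 genes for proteases, their inhibitors and other proteins of cadherin turnover, none passed 1.5-fold, and the median was 0.11. ADAM9, SPINT1, KLK6 and ST14 had log2 ratios of 0.45, 0.39, -0.27 and 0.26.

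The keratins that desmosomes anchor lay on both sides of 0. Of 10 compared, 8 lay above 0 and 2 below, none past 1.5-fold, with a median of 0.22. The simple epithelial pair KRT8 and KRT18 had log2 ratios of 0.57 and 0.49. The basal keratin gene KRT5 stood at 311.0 RPKM in the ASC library and 421.0 RPKM in the control library, a log2 ratio of -0.44. KRT6A, whose reads can be shared with near-identical copies, had -0.46. The other 8 compared keratins, with KRT14 among them, lay above 0.

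**Figure D4:**
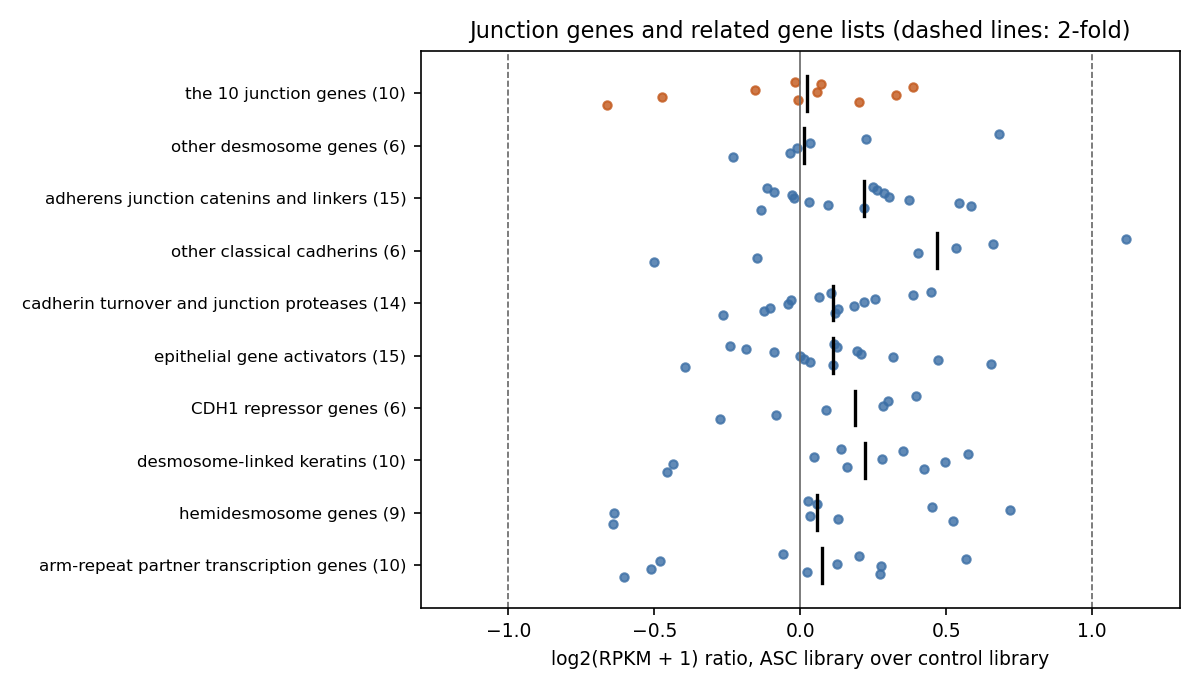
Log2(RPKM + 1) ratios of the ASC over the control library for the 10 junction genes and 9 related gene lists, 1 point per compared gene, with the median as a black bar and the number compared in brackets. CDH11, among the other cadherins, is the 1 gene past the dashed 2-fold lines.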

How the data were processed

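Poly(A) RNA of 2 SAS libraries, 1 per group, was sequenced after TruSeq library preparation per the labels' protocols, with a kit that does not mark strand. Annotated antisense genes overlap exons of CDH1, CDH3 and DSG2 by 347, 694 and 171 bases. None of these antisense genes was listed, so they have no level here. Any reads from them in the overlaps cannot be told apart from those of the members. Per the file headers, the authors deposited fractional estimated counts per transcript and RPKM for 134092 transcripts. The submitters' processing notes name build hg38. Aligner and quantifier are not named in those notes or labels. For transcripts, names, types and coordinates come from GENCODE release 29, in which 98.4% of identifiers had the same version, and printed ends are the deposited stop minus 1. Of the gene names, 285 lines held dates and were restored through the transcript identifier where it was annotated.

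RPKM was summed per gene, and genes or transcripts reaching 1 RPKM in either library were set side by side as log2 ratios with a pseudocount of 1 RPKM. Intervals are 95% exact (Clopper-Pearson) binomial intervals of rounded estimated reads scaled to listed reads. They cover counting error only, and leave out spread between cultures and the quantifier's error in assigning reads. Reads without molecular identifiers may not be independent, in which case the intervals are too narrow even for counting error. A transcript share is its percent of the gene's summed RPKM. The members and lists were chosen with earlier results of these data known. Named are the 10 members, their transcripts of at least 10% of the gene's RPKM or past a fold threshold, the 4 genes of each list with the largest absolute ratio (a few are not reported here), and CTNNB1, CTNNA1, CTNND1, PERP, DSC2, DSG1 and CDH2. Further member transcripts were chosen after their values were seen: CDH1-209, CDH3-201, PKP1-201, PKP1-202, PKP3-202 and CDH1-210. So were the genes CDH13, DSC1, CDSN, ZEB1, ZEB2, TWIST1, KRT14, NECTIN1 and NECTIN3. The calculation was tested on simulated data. Alternatives were pseudocounts of 0.1 and 3, other filters, median centring, TMM scaling with edgeR 4.0.16, CPM, the highest transcript, protein-coding transcripts, correction for the 50 nearest genes of the chromosome by their median, and other fold thresholds. Python 3.11.15, pandas 2.3.3, numpy 2.4.6, scipy 1.17.1 and R 4.3.3 were used.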

Additional observations from a re-analysis of the deposited data

How the results depend on the processing

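Under each of 10 alternatives, no member was 2-fold higher or lower, and 5 or 6 of the 10 lay above 0. The sign of every member was the same as in the main comparison under all 10, except DSP, at 0.13 when the highest transcript replaced the sum. PKP1 ranged from -0.78 with a pseudocount of 0.1 to -0.50 with a pseudocount of 3, DSC3 from -0.50 to -0.33, CDH1 from 0.28 to 0.49, PKP3 from 0.34 to 0.39 and JUP from -0.39 to -0.15. At 1.5-fold 1 member was counted, PKP1. With a pseudocount of 0.1, 2 member transcripts passed 2-fold, PKP3-202 and CDH1-208, both retained-intron fragments with few reads. Both reached 1 RPKM in the ASC library only, so their direction was set by the filter. Of the other listed genes 1 passed 2-fold, beside 0.882% of all compared genes. The count was 2 with a pseudocount of 0.1, where 2.3% of all compared genes passed. It was 0 with a pseudocount of 3, 0 with a filter of 5 RPKM and 0 with the highest transcript. At 1.5-fold it was 9, beside 2.38% of all compared genes higher and 1.81% lower. Medians of the lists moved with the filter, the pseudocount, the unit and the choice of transcript, and for the genes listed as repressors of CDH1 the median was 0.19, or -0.18 with a filter of 5 RPKM, and for the other cadherins 0.47, or -0.15 with that filter. A higher pseudocount, filter or a single transcript lowers the ratio of CDH11 or leaves it out by construction. No paired analysis was possible because each group has 1 library, and for the same reason no library could be left out.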

Other observations

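Hemidesmosome genes, which anchor keratins to the basement membrane rather than to the next cell, spread widely in the same libraries. Of 9 compared, 7 lay above 0 and 2 below, with none past 2-fold and a median of 0.06. The median was 0.19 with the median of neighbouring genes subtracted and 0.11 with the highest transcript. COL17A1 stood at 25.9 RPKM in the ASC library and 40.9 RPKM in the control library, and DST, for the plakin that ties keratin to integrin, at 30.8 RPKM with ASC and 48.4 RPKM in the control. Both had log2 ratios of -0.64 and were the 2 genes of the list below 0. LAMA3, a laminin-332 gene, had 0.52.

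Of 10 compared genes for the transcription partners and turnover of beta-catenin, 6 lay above 0 and 4 below, with none past 2-fold and a median of 0.07. The median was 0.20 with a filter of 5 RPKM, 0.11 with the median of neighbouring genes subtracted, 0.03 with protein-coding transcripts only, 0.02 with no filter and -0.01 with the highest transcript. LEF1 was low, at 0.774 RPKM in the ASC library and 1.70 RPKM in the control library. It passed the filter of 1 RPKM through the control library only, so its direction was set by the filter. Its log2 ratio was -0.60, and was past 2-fold with a pseudocount of 0.1. TCF7 and APC had -0.48 and -0.51, while TCF7L1 stood at 8.21 RPKM with ASC and 5.21 RPKM in the control, a log2 ratio of 0.57.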
